A study of Mus musculus with 3 samples.

Results

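Mouse genes best known from killer lymphocytes, mast cells and surface epithelia were followed in a myoblast line, 9 in number: the granzymes Gzme and Gzmd, the mast cell protease gene Mcpt8, the cornified envelope genes Sprr1a and Lce1g, the keratins Krt14, Krt8 and Krt18, and Cst6, which codes for cystatin M/E. They are 9 of the 22706 genes in the files. They were chosen by name, on their FPKM values (Cufflinks' fragments per transcript length and library depth) in these same libraries. Their levels and ratios below are therefore a description, with no test. Of the 9, 7 reached 1 FPKM in at least 1 library, while Krt8 and Krt18 stayed under 0.05 FPKM in all 3 libraries. Krt8 and Krt18, which mark simple epithelia, were thus at or near 0, and their place among ectopic genes is not borne out.

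The cells were C2C12, an established mouse line of mesenchymal precursors that serves as a model of myoblasts. All 3 libraries are of poly(A)-selected RNA, with 1 library in each group, so replicates cannot check any difference, and p-values are not printed. The first group was mock-transfected cells in growth medium (DMEM with 20% FBS), called mock here. The second was cells in the same growth medium labelled as a KSRP knockdown by shKSRP, a short hairpin RNA against the RNA-binding protein KSRP. The last was mock-transfected cells with the title mock-DM+BMP2, where DM is DMEM with 2% horse serum and BMP2 was given at 100 to 300 ng/ml. In that last library the medium and BMP2 cannot be told apart, and its time of treatment is not given here, since a short tag in its description and file does not say what it counts. Whether each library came from 1 culture or several, and what share of the cells took up the hairpin, is likewise not stated.

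Khsrp, the gene that codes for KSRP, stood at 31.4 ± 0.85 FPKM in mock, 27.1 ± 0.67 with BMP2 and 28.4 ± 0.64 in the library labelled shKSRP. The library labelled shKSRP held 90.6% of the mock level and the BMP2 library 86.5%, so Khsrp mRNA does not bear out the label, and every direction below is that of a library labelled shKSRP. On RefSeq transcripts alone the Khsrp log2 ratio to mock was 0.83 in the library labelled shKSRP, against −0.14 for the whole gene. Series of 3 values below stand in the order mock, library labelled shKSRP and BMP2. The depth estimated from the files was about 62100000, 68500000 and 60400000 fragments. Each ± is the half-width of the deposited 95% interval, which covers counting and assignment error only. Myoblast markers were present: desmin (Des) stood at 280 ± 2.9, 185 ± 2.3 and 218 ± 2.6 FPKM and Myod1 at 30.7 ± 1.2, 34.8 ± 1.1 and 17.3 ± 0.89. Both were picked from 10 listed markers, which were not all steady. In the library labelled shKSRP against mock, 1 was lower (Msc) and 3 were higher (Myf5, Pax7 and Dag1) by 2-fold. Over all genes compared these shares were 12.9% and 11.0%. With BMP2 against mock, 3 were lower (Cdh15, Itga7 and Msc) and 0 higher, beside 8.95% and 9.21% of all genes.

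Granzymes are serine proteases that cytotoxic lymphocytes store in granules and deliver into target cells with the help of perforin. In the mouse, several granzyme genes lie next to the chymase-like proteases of mast cells and basophils in a single gene cluster, and some members are also known from tissues outside the blood. The cornified envelope is the protein shell of dead surface keratinocytes, built from small proline-rich (Sprr) and late cornified envelope (Lce) proteins that transglutaminases crosslink. Keratins form filaments as pairs of a type I and a type II chain: Krt14 pairs with Krt5 in the basal layer of the epidermis, and Krt18 with Krt8 in simple epithelia. Cystatin M/E is a secreted inhibitor of cysteine proteases, which holds back cathepsin L and legumain in skin.

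Promoters are shown here for 5 members. Of them, 2 are near-copies whose fragments can be confused, and 3 held repeated matches to the AP-1 or the TEAD motif. Repeats of the other motifs searched were not a reason to print a window. RefSeq windows of GRCm38.p6, of 300 bases around the start (the last 50 lie after it), were found for 8 of the 9 members. Cst6 had no entry. These windows are in another build than the deposited files, whose coordinates are mm9. Gzme (chr14:56120576-56120875, minus strand) and Gzmd (chr14:56132544-56132843, minus strand) are printed with the bases that differ between them in capitals.
Gzme: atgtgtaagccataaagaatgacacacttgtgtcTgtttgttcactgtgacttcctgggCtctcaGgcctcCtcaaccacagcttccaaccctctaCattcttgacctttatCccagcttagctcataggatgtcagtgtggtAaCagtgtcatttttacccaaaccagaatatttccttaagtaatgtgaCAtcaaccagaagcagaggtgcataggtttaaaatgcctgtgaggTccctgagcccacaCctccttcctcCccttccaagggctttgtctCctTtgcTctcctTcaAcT
Gzmd: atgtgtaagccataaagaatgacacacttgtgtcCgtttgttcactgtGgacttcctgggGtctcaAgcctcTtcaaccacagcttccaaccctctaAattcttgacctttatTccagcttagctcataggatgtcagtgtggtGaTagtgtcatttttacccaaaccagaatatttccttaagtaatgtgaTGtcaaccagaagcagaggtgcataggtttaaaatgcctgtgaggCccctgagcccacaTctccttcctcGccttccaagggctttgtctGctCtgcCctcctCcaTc
Over these 300 bases the pair had 281 identical bases, 18 mismatches and 2 gap columns (93.4% identity). Against the same window of Gzmc, another granzyme of the cluster, Gzme had 82.8% identity.

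Sprr1a (chr3:92485832-92486131, minus strand) follows with its matches to the AP-1 motif TGANTCA in capitals, and then Lce1g (chr3:92752289-92752588, minus strand) and Mcpt8 (chr14:56085148-56085447, minus strand) with their matches to the TEAD motif GGAATG in capitals.
Sprr1a: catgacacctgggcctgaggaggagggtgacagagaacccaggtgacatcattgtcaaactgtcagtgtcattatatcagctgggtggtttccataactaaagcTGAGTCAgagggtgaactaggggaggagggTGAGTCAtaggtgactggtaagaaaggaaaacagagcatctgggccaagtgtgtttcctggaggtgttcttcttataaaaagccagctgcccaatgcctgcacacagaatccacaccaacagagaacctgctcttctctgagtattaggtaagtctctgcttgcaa
Lce1g: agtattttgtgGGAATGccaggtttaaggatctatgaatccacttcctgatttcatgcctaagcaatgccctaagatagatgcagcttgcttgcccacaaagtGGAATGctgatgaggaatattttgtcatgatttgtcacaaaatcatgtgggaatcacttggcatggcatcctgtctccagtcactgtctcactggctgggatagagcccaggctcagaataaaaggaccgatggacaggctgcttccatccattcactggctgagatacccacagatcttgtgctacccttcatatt
Mcpt8: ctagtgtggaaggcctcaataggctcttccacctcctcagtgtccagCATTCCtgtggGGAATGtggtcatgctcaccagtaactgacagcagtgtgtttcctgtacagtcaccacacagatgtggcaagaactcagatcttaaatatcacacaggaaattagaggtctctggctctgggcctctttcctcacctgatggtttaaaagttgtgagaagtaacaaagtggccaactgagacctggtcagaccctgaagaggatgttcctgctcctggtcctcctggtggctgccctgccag
Both strands were searched for these motifs, for the E-box CANNTG and for TATAAA, and the motifs were chosen after the sequences were seen. The AP-1 motif had 2 matches in Sprr1a, which began 146 and 116 bases before the start, and none in the other 7 windows. Of all 32851 promoter windows of this length, 7.81% held at least 1 such match and 0.460% at least 2. The TEAD motif had 2 matches each in Lce1g and Mcpt8 and 1 in Krt14, where 14.7% of all windows held at least 1 and 1.36% at least 2. The Krt14 window of the table belongs to a start other than that of its transcript in the files and is not printed. The E-box, held by 72.3% of all windows, was found in all 8 windows, and TATAAA, held by 13.6%, was found in Sprr1a and Krt8. The granzyme pair held neither the AP-1 nor the TEAD letters. No match of one motif overlapped a match of another in these windows, and a match is a description, not a binding site.

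Gzme codes for granzyme E and lies on mm9 chromosome 14, from 56736456 to 56739462, minus strand. Its FPKM was 23.1 ± 1.4 in mock, 4.72 ± 0.63 with BMP2 and 0.0552 ± 0.064 in the library labelled shKSRP. The mock library was thus the highest and the library labelled shKSRP held about 3 fragments of the gene, by the width of the interval. Mock was 418-fold above the library labelled shKSRP (95% counting interval 143 to 2029) and 4.88-fold above the BMP2 library (4.23 to 5.65). In these bulk libraries, fewer cells with a transcript and less of it per cell cannot be told apart.

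Gzmd codes for granzyme D and lies 8.94 kb from Gzme in the same cluster (56748405 to 56751430, minus strand). It stood at 2.76 ± 0.47 FPKM in mock and 0.305 ± 0.16 with BMP2, and was listed at 0 in the library labelled shKSRP. Mock was 9.06-fold above the BMP2 library (5.31 to 16.6). No fold is given against the listed 0. Gzme and Gzmd shared a Cufflinks locus in mock, and their mRNAs were 94.8% identical over aligned bases. Of the 50-base words of the Gzme mRNA, 20.6% also occurred in annotated transcripts of other genes (12.7% in Gzmd), so the division between the pair is uncertain. The sum of both genes, whose transcripts differ little in length, was 25.8, 0.0552 and 5.03 FPKM.

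Mcpt8 codes for a serine protease that is used as a marker of basophils, and lies 32.4 kb from Gzme (56701000 to 56704034, minus strand). Its FPKM was 19.6 ± 1.3 in mock, 0.886 ± 0.29 with BMP2 and 0.0621 ± 0.072 in the library labelled shKSRP. The library labelled shKSRP again held about 3 fragments, and the BMP2 library about 38. Mock was 315-fold above the first (107 to 1529) and 22.1-fold above the second (15.95 to 31.4). No 50-base word of the Mcpt8 mRNA occurred in a transcript of another gene, so this level does not rest on a shared sequence of an annotated transcript.

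**Figure D1:**
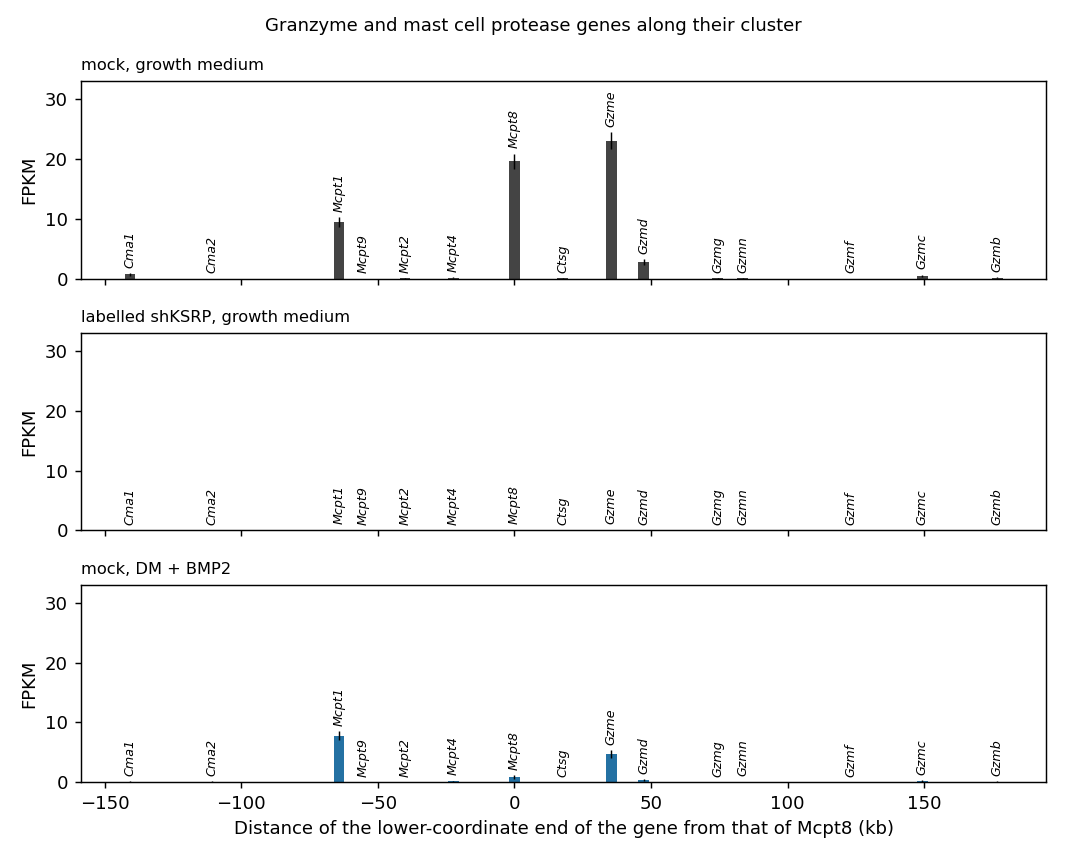
FPKM (vertical axis, linear) of the 15 granzyme and mast cell protease genes listed for the cluster, against their distance in kb from Mcpt8, 1 panel per library. Bars are gene values and lines the half-width of the 95% interval. Mcpt1, Mcpt8, Gzme and Gzmd are the 4 genes above 1 in mock, none is above 1 in the library labelled shKSRP, and Mcpt1 and Gzme are the 2 above 1 in the BMP2 library.

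Among the 15 genes listed for this cluster, expression was sparse. Mcpt1 and the 3 members reached 1 FPKM in any library, and the other 11 stayed at or under 0.704 FPKM. Mcpt1, a mast cell chymase gene that is no member of the set and lies 61.8 kb from Mcpt8, was at 9.40 ± 0.82 in mock, 7.78 ± 0.75 with BMP2 and 0.0484 ± 0.056 in the library labelled shKSRP. Unlike Mcpt8, it passed no 2-fold step between mock and the BMP2 library (log2 ratio −0.24). The summed FPKM of the 15 genes was 56.3, 0.181 and 14.3. Around the members, within 500 kb, 21 of 44 other genes could be compared. Between the library labelled shKSRP and mock, 6 were lower and 1 was higher by 2-fold, with a median log2 ratio of −0.40, beside 12.9% lower, 11.0% higher and a median of −0.02 over all genes compared. With BMP2 against mock, 2 of these neighbours were lower and 2 higher, beside 8.95% and 9.21% of all genes. Neighbours lower in the library labelled shKSRP included Sdr39u1 (16.2 and 2.08 FPKM) and Tm9sf1 (60.7 and 19.5), both singled out with their values in view. The 6 lower also include Mcpt1, given above, and Emc9 (11.7 in mock) and Tinf2 (19.6), both listed at 0 in the library labelled shKSRP. Khnyn, the 1 higher, was at 3.02 there and listed at 0 in mock. With BMP2 the 2 lower, Irf9 and Tinf2, were listed at 0. These counts of neighbours thus rest in part on listed 0s.

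Partners of granzymes outside the cluster gave another picture. Of 11 listed genes, 4 could be compared, and in the library labelled shKSRP against mock 2 were higher, none was lower, and the median log2 ratio was 0.81. The shares over all genes compared were 11.0% higher and 12.9% lower. Serpinb9, which codes for an inhibitor of granzyme B and shares its locus with Serpinb9b, was at 11.7 ± 0.60, 31.1 ± 0.73 and 12.2 ± 0.49 FPKM. Serpinb6b, of the same inhibitor family, was at 2.45 ± 0.30, 11.0 ± 0.72 and 3.97 ± 0.38. Both gene values were highest in the library labelled shKSRP. Summed with Serpinb9b over their locus, however, Serpinb9 was at 109, 51.0 and 104 FPKM, with a log2 ratio to mock of −1.08 in place of 1.34, so its direction depends on how the locus is divided. By locus, 1 of the 4 genes was then higher and 1 lower. Lamp1, a protein of lysosomal and granule membranes, was at 390 ± 3.4, 470 ± 3.5 and 434 ± 3.6, and Gnptab, which tags enzymes for lysosomes, at 8.21 ± 0.31, 10.1 ± 0.33 and 8.68 ± 0.33. Perforin (Prf1) and granzyme A (Gzma) were listed at 0 in all 3 libraries.

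Sprr1a codes for a small proline-rich precursor of the cornified envelope and lies on chromosome 3 (92287876 to 92289803, minus strand). Its FPKM was 33.4 ± 1.8 in mock, 5.43 ± 0.74 with BMP2 and 0.0894 ± 0.089, on about 4 fragments, in the library labelled shKSRP. Mock was 374-fold above the library labelled shKSRP (146 to 1374) and 6.16-fold above the BMP2 library (5.33 to 7.14). Sprr1a shared no 50-base word with transcripts of other genes.

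Lce1g codes for a late cornified envelope protein, 264 kb from Sprr1a on the same chromosome (92554073 to 92556260, minus strand). It stood at 28.7 ± 1.5 in mock, 16.3 ± 1.2 with BMP2 and 0.332 ± 0.16 in the library labelled shKSRP. The mock and BMP2 libraries lay close together, with a 1.77-fold difference (1.62 to 1.93), and the library labelled shKSRP was 86.7-fold below mock (54.6 to 147). Lce1g shared its locus with Lce1h and Lce1l, and 17.8% of its 50-base words occurred in other genes (9.54% in Lce1j), so part of its value is uncertain between copies. Lce1h and Lce1l were at or under 0.0872 FPKM in all 3 libraries, and the locus sum was 28.7, 0.332 and 16.35.

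Few other cornified envelope genes were detected. Of 47 listed genes that matched a symbol, 6 could be compared, the 2 members included, and 41 stayed at or under 0.779 FPKM. Between the library labelled shKSRP and mock, 2 of the 4 that are no members were lower and 1 was higher (median log2 ratio −1.40). With BMP2 against mock 1 was lower and 1 higher (median 0.11). All genes compared gave 12.9% lower and 11.0% higher in the first comparison, and 8.95% and 9.21% with BMP2. Sprr2h, another small proline-rich gene, was at 13.7 ± 1.8 in mock, 4.14 ± 0.96 with BMP2, and was listed at 0 in the library labelled shKSRP. S100a16, which codes for a calcium-binding protein of the same gene complex, was at 126 ± 3.5, 34.2 ± 1.4 and 94.8 ± 3.1 FPKM. On RefSeq transcripts alone Sprr2h was at 5.80, 0 and 2.31 and S100a16 at 99.1, 0 and 54.0. All of S100a16 in the library labelled shKSRP thus stood on an assembled transcript. The number lower stayed at 2 on RefSeq transcripts alone. Lor, which codes for loricrin, was at 1.34 ± 0.21, 0.215 ± 0.086 and 2.63 ± 0.32, and was highest with BMP2. Tgm5, a crosslinking transglutaminase gene that lies elsewhere, ran the other way, at 1.34 ± 0.19, 5.17 ± 0.35 and 4.81 ± 0.41. Prr9, a further gene within 500 kb, was also singled out with its values in view and was at 10.8, 1.09 and 16.4 FPKM.

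**Figure D2:**
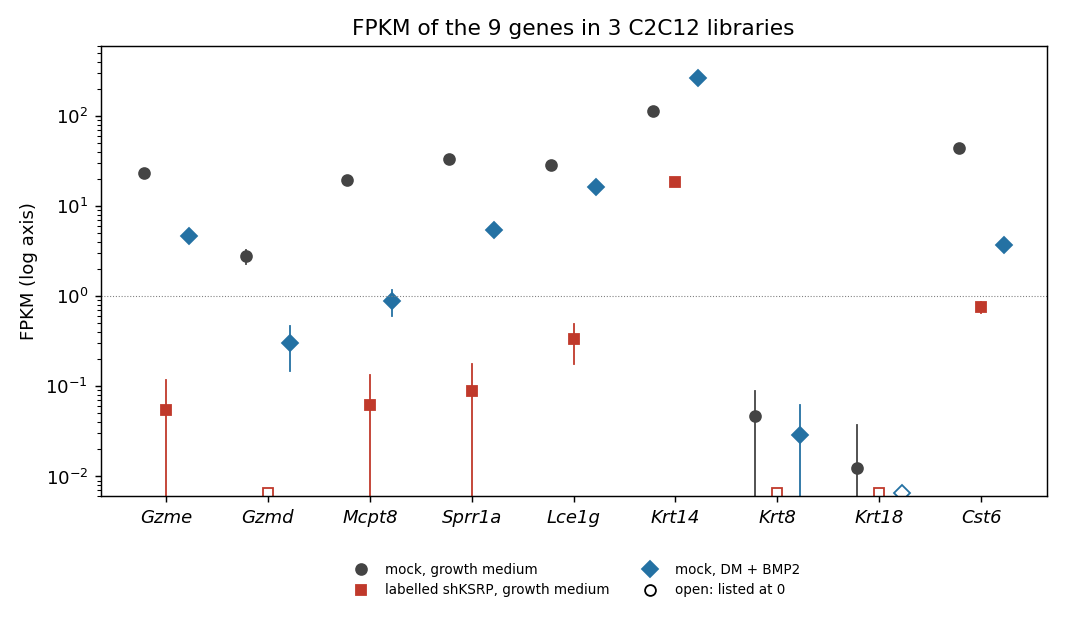
FPKM (log axis) of the 9 genes in mock (circles), the library labelled shKSRP (squares) and the BMP2 library (diamonds), with the 95% interval as a line and open symbols at the foot of the axis for a gene listed at 0. The dotted line marks 1 FPKM. The library labelled shKSRP is the lowest for the 7 genes above that line in any library, and Krt14 is the gene highest with BMP2.

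Krt14 codes for the type I keratin of basal epidermis and lies on chromosome 11 (100064476 to 100068824, minus strand). Its FPKM was 114 ± 2.7 in mock, 264 ± 3.3 with BMP2 and 18.4 ± 1.0 in the library labelled shKSRP. It was the most abundant of the 9 in each library, above 91.9%, 62.0% and 97.0% of the 11462 genes compared. The BMP2 library was 2.31-fold above mock (2.25 to 2.37), and the library labelled shKSRP 6.20-fold below mock (5.84 to 6.58). Krt14 was thus the member that was higher with BMP2.

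These Krt14 values rest on a difficult locus. In mock, 70.7 FPKM stood on the RefSeq transcript and 43.4 on a transcript assembled from the library's own reads, while all 264 FPKM of the BMP2 library stood on the RefSeq transcript. On RefSeq transcripts alone the log2 ratio of BMP2 to mock was 1.88, against 1.20 for the whole gene. The locus joined Krt14 to 6 other type I keratin or hair keratin genes in at least 1 library. Of the 50-base words of Krt14, 11.4% also occur in Krt16 and 3.34% in Krt17.

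Several of these neighbours were listed at exactly 0 in 1 library and well above it in another. Krt16 was at 56.8 ± 1.6 with BMP2, 0.268 ± 0.10 in the library labelled shKSRP and listed at 0 in mock. Krt19 was at 20.9 ± 1.0 in mock, listed at 0 with BMP2 and at 0.590 ± 0.20 in the library labelled shKSRP. Krt13 was at 26.3 ± 1.4 in the library labelled shKSRP, where most of it stood on assembled transcripts, and listed at 0 in the other two. Krt15 and Krt17 were listed at 0 in all 3 libraries. A listed 0 at such a locus can be a failed division of fragments, so no fold is given against it. The sum over the 7 genes, which depends less on that division but still on the lengths of the transcripts, was 135 in mock, 320 with BMP2 and 45.6 in the library labelled shKSRP. Its log2 ratio to mock was 1.24 with BMP2 and −1.55 for the library labelled shKSRP. The order of the libraries was thus the same for Krt14 and for its whole locus.

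**Figure D3:**
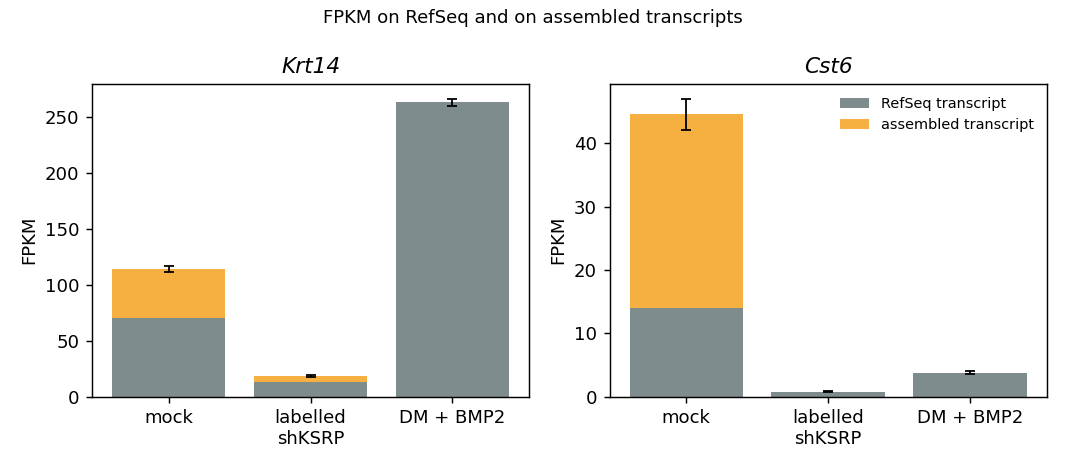
FPKM (linear axis) of Krt14 and Cst6 in each library, split into the RefSeq transcript (grey) and assembled transcripts (orange), with the half-width of the 95% interval of the sum. For Krt14 the assembled part was 43.4 in mock, 0 with BMP2 and 5.68 for the library labelled shKSRP, and for Cst6 it was 30.6 in mock and 0 in the other two.

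Krt8 and Krt18, the pair of simple epithelia, were not expressed at a level these libraries could measure. Krt8 (chromosome 15, 101827142 to 101834773, minus strand) was at 0.0464 ± 0.042 in mock, listed at 0 in the library labelled shKSRP and at 0.0286 ± 0.033 with BMP2. Krt18, 23.9 kb away (101858647 to 101862457, plus strand), was at 0.0123 ± 0.025 in mock and listed at 0 in the other two. These values stand on about 5 and 3 fragments for Krt8 and 1 for Krt18, so no ratio is read from them. Of the 50-base words of Krt8, 26.9% occur in its pseudogene Krt8-ps, and of Krt18 0.720% in other genes, which leaves most of each mRNA with words of its own.

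The partners of the expressed keratins were not found either. Krt5, the type II partner of Krt14, was at 0.0226 ± 0.026 in mock, 0.0386 ± 0.035 with BMP2, and the library labelled shKSRP had it at 0. Of 23 type II keratin genes, Krt80 alone reached 1 FPKM, at 6.94 ± 0.49, 2.72 ± 0.33 and 1.93 ± 0.29. Its highest level was in mock, where the whole value stood on assembled transcripts. The RefSeq transcript of Krt80 was listed at 0 in mock, and at 0.862 in the library labelled shKSRP and 0.522 with BMP2. Of 27 type I keratin genes, 5 reached 1 FPKM: Krt10, Krt13, Krt14, Krt16 and Krt19. Krt10, a keratin of the upper epidermis, was at 12.5 ± 2.0, 4.09 ± 0.46 and 8.68 ± 1.8, with 11.8 of the mock value on assembled transcripts. Without Krt14, 2 of the other 4 type I genes were lower and 1 was higher in the library labelled shKSRP against mock (median log2 ratio −0.53), and 1 was lower and 1 higher with BMP2 (median −0.24). Krt13, Krt16 and Krt19 among these rest on listed 0s. With whole loci summed, where genes of 1 locus share a value, 4 were lower and 0 higher in the first comparison, and 0 lower and 3 higher in the second. On RefSeq transcripts alone, 1 was lower in the first. Beside these counts stand 12.9% lower and 11.0% higher over all genes in the first comparison, and 8.95% and 9.21% in the second.

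**Figure D4:**
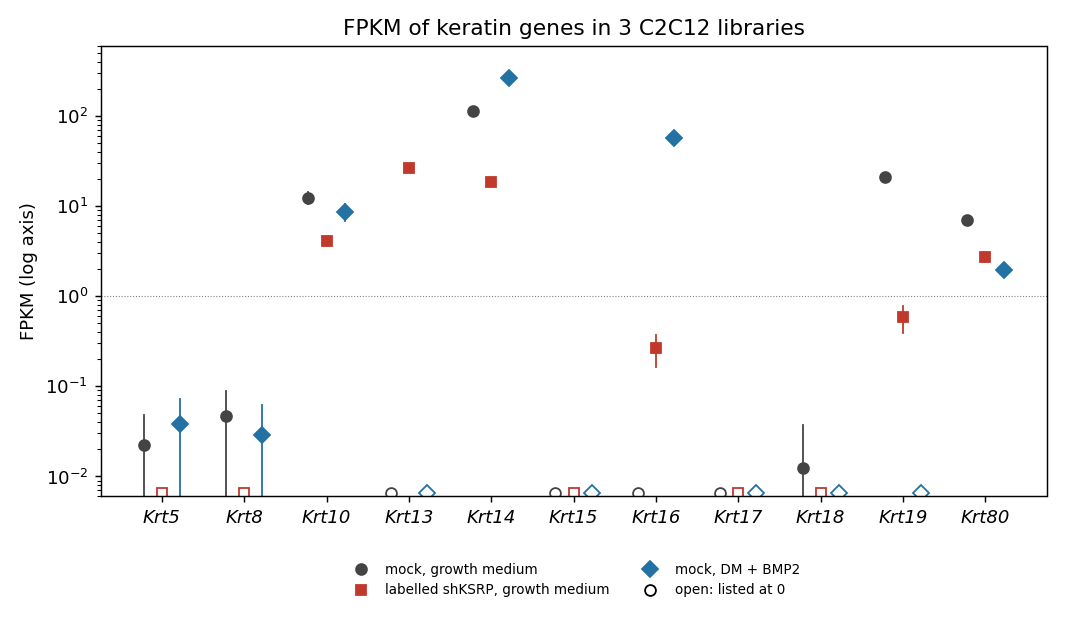
FPKM (log axis) of the keratin genes that reached 1 FPKM in any library, with Krt5, Krt8, Krt15, Krt17 and Krt18 beside them, in mock (circles), the library labelled shKSRP (squares) and the BMP2 library (diamonds). Lines are 95% intervals and open symbols at the foot of the axis are genes listed at 0. Krt14 is above 10 in all 3 libraries, while Krt5, Krt8 and Krt18 lie under 0.05.

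Cst6, on chromosome 19 (5344705 to 5349574, minus strand), had a total of 44.6 ± 2.5 FPKM in mock, 3.75 ± 0.25 with BMP2 and 0.763 ± 0.11 in the library labelled shKSRP. Mock was 58.4-fold above the library labelled shKSRP (50.5 to 68.0) and 11.9-fold above the BMP2 library (10.9 to 13.0). In mock, 30.6 FPKM stood on an assembled transcript of 586 nt and 14.02 on the RefSeq transcript of 3951 nt, while in the other libraries the whole value stood on the long one. With fragments counted over 1 fixed length, Cst6 was at 18.6, 0.763 and 3.75 FPKM, and the log2 ratios to mock went from −4.69 to −3.47 and from −3.26 to −2.04. On RefSeq transcripts alone they were −3.09 and −1.66. Cst6 remained highest in mock under each of these counts, with a ratio past 2-fold, and shared no 50-base word with another gene.

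Of the 18 listed cystatins and proteases that they can inhibit, 11 stayed at or under 0.0527 FPKM in all 3 libraries, and Cst3 and Cstb were the other cystatins above 1 FPKM. Of 6 genes that could be compared besides Cst6, 1 was lower in the library labelled shKSRP against mock and none was higher (median log2 ratio −0.32), and with BMP2 against mock none was called lower or higher (median −0.05). Shares over all genes were 12.9% lower and 11.0% higher in the first comparison, and 8.95% and 9.21% in the second. Ctsl, which codes for cathepsin L, was at 320 ± 4.5, 385 ± 3.4 and 639 ± 7.1 FPKM, and its ratio of BMP2 to mock was 2.00 in plain FPKM (1.97 to 2.04) and just under the 2-fold rule as a log2 ratio of FPKM + 1. Lgmn, which codes for legumain, was at 74.8 ± 2.0, 67.6 ± 1.5 and 70.0 ± 1.6. Ctsb, the cathepsin B gene, was at 449 ± 4.1, 371 ± 4.6 and 395 ± 5.1. On RefSeq transcripts alone Ctsl was at 203, 385 and 325, and was then highest in the library labelled shKSRP. Lgmn was likewise at 28.1, 67.6 and 70.0 and Ctsb at 0, 141 and 119 on RefSeq transcripts alone. In that setting 2 genes of this list were higher in the library labelled shKSRP against mock. The broad inhibitors Cst3 and Cstb were at 609 ± 8.0, 469 ± 6.7 and 653 ± 8.4 and at 302 ± 6.5, 195 ± 5.0 and 223 ± 5.7. Cst3 shares its locus with Cstdc2. The 1 lower gene, singled out with its values in view, was Ctsh, which codes for cathepsin H, at 12.3 ± 0.72, 1.85 ± 0.27 and 12.3 ± 0.73.

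The 3 comparisons can now be set side by side as log2 ratios of FPKM + 1, which understate differences of low values, with 2-fold (a log2 ratio of 1 in size) as the rule for calling a gene lower or higher. Between the library labelled shKSRP and mock, all 7 members compared were lower. Over all 11462 genes compared, 12.9% were lower and 11.0% higher, but this contrast was used in choosing the members and nothing is read from their count. Their log2 ratios ran from −1.91 for Gzmd to −4.98 for Sprr1a, with a median of −4.48, beside −0.02 over all genes. With a pseudocount of 5, Gzmd (−0.64) was no longer called and 6 were lower.

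With BMP2 against mock, 5 of the 7 were lower, Krt14 was higher and Lce1g passed in neither direction. Over all genes 8.95% were lower and 9.21% higher, and this contrast too was used in the choice. The ratios of those lower ran from −1.53 for Gzmd to −3.45 for Mcpt8, and that of Krt14 was 1.20. The median of the 7 was −2.07 and that of all genes 0.03. With a pseudocount of 5, Gzmd (−0.55) again lost its call and 4 were lower. Both comparisons share the mock library, so they are not independent of each other.

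The library labelled shKSRP against the BMP2 library leaves mock out. There 5 of the 7 were lower and none higher, where 8.65% of all genes were lower and 6.06% higher, and these libraries too were in view when the members were chosen. Krt14 had the log2 ratio −3.77, Lce1g −3.70, Sprr1a −2.56, Gzme −2.44 and Cst6 −1.43. Mcpt8 (−0.83) and Gzmd (−0.38) did not pass, with both libraries under 1 FPKM, where the pseudocount holds the ratio down. In plain FPKM the BMP2 library was 14.3-fold above the library labelled shKSRP for Mcpt8 (4.52 to 72.2) and 85.6-fold for Gzme (28.9 to 418). With a pseudocount of 5 in place of 1, 3 of the 7 were lower.

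**Figure D5:**
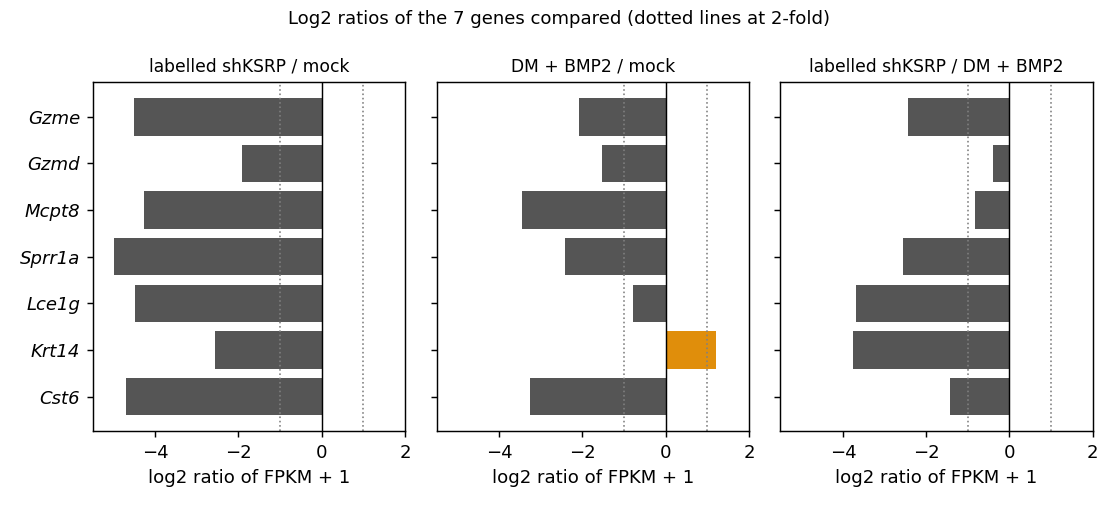
Log2 ratios of FPKM + 1 (horizontal axis) for the 7 genes compared, in the library labelled shKSRP against mock (left), BMP2 against mock (middle) and the library labelled shKSRP against BMP2 (right). Dotted lines mark 2-fold. The bars point to lower values in the left and right panels, and in the middle panel Krt14 points to a higher value at 1.20.

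Across the 3 libraries, 6 of the 7 ran from highest to lowest as mock, BMP2 and the library labelled shKSRP, an order that 21.0% of all genes compared had. Krt14 ran as BMP2, mock and the library labelled shKSRP. The last was the lowest of the libraries for all 7, as for 35.4% of all genes. The share of the mock level that the BMP2 library kept was 4.53% for Mcpt8, 8.40% for Cst6, 11.0% for Gzmd, 16.3% for Sprr1a, 20.5% for Gzme, 56.6% for Lce1g and 231% for Krt14. In counting error alone, the intervals of neighbours in that order overlapped for Cst6 and Gzmd, for Gzmd and Sprr1a and for Sprr1a and Gzme. They did not overlap for Mcpt8 and Cst6, and Lce1g and Krt14 stood clear of the other 5. As ratios, however, the interval of Mcpt8 (0.0318 to 0.0627) overlapped that of Gzmd (0.0602 to 0.189). The place of Cst6 rests on its assembled transcript in mock.

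Short transcripts are common in the set, and transcript length moved with the ratios of all genes. Of the 7, 5 have a longest RefSeq transcript under 1000 nt, from 790 nt for Sprr1a to 937 nt for Gzmd. Over the 907 genes under 1000 nt, the median log2 ratio to mock was −0.55 in the library labelled shKSRP and −0.43 with BMP2, and 26.5% and 15.9% were lower. With the trend over length taken out, Sprr1a stood at −4.44 and −2.02, Gzme at −3.98 and −1.71, Mcpt8 at −3.77 and −3.09, and Lce1g at −3.95 and −0.43. All 7 members kept their side of the 2-fold rule in both comparisons.

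Markers of the cells that these genes are known from were mostly missing. All 12 markers of cytotoxic lymphocytes stayed at or under 0.121 FPKM, their sum was 0.133, 0.0117 and 0.179, and Cd3e, Cd8a, Klrk1, Ncr1 and Prf1 were listed at 0 in all 3. Of 12 mast cell and basophil markers, Fcer1a, Ms4a2, Cpa3, Gata1 and Mrgprb2 were listed at 0 in all 3 and Kit was at or under 0.0031. Their sum was 21.8, 5.77 and 16.5 and came mainly from Gata2, Hdc and Tpsab1. Gata2, the highest of the list in each library, was at 11.0 ± 0.64, 5.63 ± 0.35 and 9.06 ± 0.58 FPKM and passed no 2-fold step. Hdc, which codes for the enzyme that makes histamine, was at 5.44 ± 0.48, 0.0188 ± 0.022 and 6.06 ± 0.41 FPKM, and the tryptase gene Tpsab1 at 4.20 ± 0.50, 0.108 ± 0.077 and 1.15 ± 0.26. Of 12 keratinocyte markers, Krt15, Epcam and Krt1 were listed at 0 in all 3, and 8 stayed at or under 0.317 FPKM in every library. Their sum of 127, 25.9 and 275 was mostly Krt14. The part of such cells in the members' levels was not tested.

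Genes of epithelial junctions and their transcription factors gave a mixed picture. Of 36 listed, 12 could be compared, of which 4 were lower and 1 higher in the library labelled shKSRP against mock (median log2 ratio −0.47), and 2 were lower and 3 higher with BMP2 (median 0.07). Over all genes compared, 12.9% were lower and 11.0% higher in the first comparison, and 8.95% and 9.21% in the second. Jup, which codes for plakoglobin, was at 54.5 ± 2.0, 17.8 ± 0.61 and 31.0 ± 0.84 FPKM. Of these values 3.64, 1.90 and 2.63 FPKM stood on its RefSeq transcript and the rest on assembled transcripts. The desmosome genes Pkp1 and Pkp2 were at 12.4 ± 0.42, 11.4 ± 0.57 and 24.0 ± 0.84 and at 10.3 ± 0.50, 12.3 ± 0.58 and 23.5 ± 1.3. Like Krt14, both were highest with BMP2 as whole genes, where much of the value stood on assembled transcripts. On RefSeq transcripts alone Pkp1 was at 12.4, 4.41 and 8.86 and Pkp2 at 10.3, 9.76 and 6.31. Both were then highest in mock. Lamb3, a laminin chain gene of the epidermal basement membrane, was at 5.52 ± 0.35, 2.29 ± 0.25 and 23.6 ± 0.74, in the same order as Krt14. The transcription factor gene Klf5 and the integrin gene Itga6 were at 10.5 ± 0.57, 10.4 ± 0.41 and 3.53 ± 0.26 and at 10.1 ± 0.33, 2.92 ± 0.17 and 2.78 ± 0.20. For Klf5 and Itga6 the whole value stood on assembled transcripts, and the RefSeq transcript was listed at 0 in each library. The 1 higher gene in the library labelled shKSRP, singled out with its values in view, was the integrin gene Itgb4, at 2.69 ± 0.17 on an assembled transcript and listed at 0 in the other two.

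By the distance between pairs of log2 ratios to mock, 6 genes lay nearest to the members' median pair (−4.27 and −1.53 over all 9), out of 5145 candidates at 10 FPKM or more in mock. The distance uses 2 ratios over 3 libraries, and many genes can share such a pattern. That pair takes in Krt8 and Krt18, whose ratios near 0 come from the pseudocount. Over the 7 members compared the medians were −4.48 and −2.07. Acsbg1 (−3.68 and −2.22) lies closer to these than Klf2 (−3.93 and −1.09), so the ranking below holds for the pair over all 9 only. Klf2, a transcription factor gene, was nearest to the pair over all 9 (distance 0.557), at 55.2 ± 2.7, 2.69 ± 0.30 and 25.4 ± 0.98 FPKM. Phlda1 followed at 132 ± 4.2, 12.01 ± 0.61 and 45.8 ± 1.3. Acsbg1, which codes for an acyl-CoA synthetase, was at 35.6 ± 2.1, 1.86 ± 0.24 and 6.83 ± 0.48, and the ETS factor gene Etv4 at 17.4 ± 0.89, 0.781 ± 0.17 and 6.57 ± 0.53. Tinagl1 was at 30.6 ± 1.4, 2.13 ± 0.35 and 13.7 ± 0.91, and Apol9b, which has a close copy, at 27.5 ± 1.3, 2.07 ± 0.36 and 8.70 ± 0.72. Part of the mock value stood on assembled transcripts in all 6, for Klf2 40.1 and for Phlda1 89.8 FPKM. On RefSeq transcripts alone Klf2 was at 15.0, 2.69 and 25.4 and Phlda1 at 42.5, 12.01 and 45.8, so that both were then highest with BMP2.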

How the data were processed

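The authors deposited, for each library, a Cufflinks transcript file with FPKM and its bounds per transcript, per the file headers and attributes. The deposited score column was not used. Cufflinks 1.3.0, TopHat 1.4.1, Bowtie 0.12.7, CASAVA 1.8 and the build mm9 are listed in the submitters' processing notes, with roles and settings not given in the sources used here. Strand and read length are likewise not given.

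RefSeq accessions were mapped to symbols (27563 of 28222 through RefSeq's gene table for GRCm38.p6, from which only names were taken). Gene FPKM is the sum over a gene's RefSeq transcripts and the assembled transcripts of its locus. Where a locus held several genes, each assembled transcript was given to the one with most shared exon bases. Half-widths add as the root of summed squares. Genes were compared at 1 FPKM or more in any library and 300 nt or more. The fragments behind a value are (2 × FPKM/half-width) squared. These came out whole, within 0.02, for 89.1% to 90.7% of values under 200 fragments at single-transcript loci. Fold intervals are exact binomial (Clopper-Pearson, 95%) on these fragments, for counting error only. No source used here says whether PCR copies were removed. Scripts used Python 3.11.15 and scipy 1.17.1. Calls and intervals were run on counts simulated around mock values of 10 FPKM or more. These counts follow the counting model of the intervals itself, with smaller folds than those of Gzme, Mcpt8 and Sprr1a. The simulation therefore checks the code only, and not assignment error, shared loci or differences between cultures.

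Shared words and mRNA identity used GENCODE vM21 transcripts and 50-base words. All members are named, with up to 6 genes of each list by highest FPKM, genes at a member's locus, and the 6 nearest in pattern. Members and lists were chosen with earlier results of these data known. The list genes Krt85, Flg, Lce1k, Sprr2a1 and Sprr2a3 matched no symbol.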

Additional observations from a re-analysis of the deposited data

How the results depend on the processing

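Each comparison was recomputed under 10 alternatives (2 pseudocounts, RefSeq transcripts only, the most abundant RefSeq transcript, whole loci, required exon overlap, 2 library scalings, the length trend, 1 fixed length per gene). Of 270 member ratios so obtained, none of those called in the main values reversed, 4 lost their call and 3 gained one. With a pseudocount of 5, Gzmd lost its call in both comparisons with mock (−0.64 and −0.55), and Gzme (−0.94) and Cst6 (−0.60) in the library labelled shKSRP against BMP2, where 3 of 7 members were then lower, not 5. There, Gzmd passed with a pseudocount of 0.1 (−2.02) or by locus (−2.51), and Mcpt8 with 0.1 (−2.60). Over the related genes of all lists, a pseudocount of 5 took the numbers lower and higher in the library labelled shKSRP against mock from 11 and 5 to 7 and 3, with BMP2 against mock from 5 and 5 to 2 and 2, and between those libraries from 11 and 5 to 5 and 2. Summing whole loci took the higher genes from 5 to 3 in the first and last of these. RefSeq transcripts only, or the most abundant alone, took the lower genes with BMP2 from 5 to 2 and the higher genes in the last from 5 to 2. Main shares lower and higher over all genes were 12.9% and 11.0%, 8.95% and 9.21%, and 8.65% and 6.06% in these 3 comparisons. Shares over all genes under the alternatives are not given here, so nothing is read from the changes in these numbers. Khsrp log2 ratios to mock of −0.14 (library labelled shKSRP) and −0.20 (BMP2) became 0.83 and 0.77 in both of these RefSeq settings and −0.34 and −0.40 once the trend over length was removed. The cause of these shifts was not tested. Values under about 5 fragments limit the ratios of Gzme, Mcpt8 and Sprr1a in the library labelled shKSRP. With no filter on FPKM the numbers over the related genes were the same. No paired analysis was possible because each group holds 1 library, and for the same reason none could be left out.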
